A study of Arabidopsis thaliana with 134 samples.

Results

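The lines of a Tnz-1 × Ws-2 recombinant inbred population of Arabidopsis thaliana were divided by the parental allele that they appeared to carry on the upper arm of chromosome 5. The tag was PSRP6 (AT5G17870), a gene on the plus strand at chr5:5907589-5908464 (TAIR10.1) whose transcript was abundant in the Tnz-1 parent and listed at 0 in the Ws-2 parent. A line was called Tnz-1-like when its mean log2(TPM+1) of PSRP6 over its light and dark library lay above the midpoint of the parents, and Ws-2-like when it lay below (TPM is a library's share of transcripts, scaled to the same total in every library). No line had its libraries on different sides, so 24 Tnz-1-like and 41 Ws-2-like lines made up all 65 lines.

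RNA was sequenced from whole 12-day-old seedlings grown on sucrose medium in short days. At 10 h after dawn each line and each parent gave 1 library from plants kept in the light for 2 h past the usual dusk and 1 from plants left in the dark, which makes 134 libraries in all. By their labels, the Tnz-1-like and Ws-2-like lines differed from each other only in line, that is in which mosaic of the parental genomes they held. Every group had the same age, medium and day length. Whether other conditions, such as seed or library batch, were balanced between the sets was not tested. Each line was represented by pooled seedlings and by no second library per condition, so lines were the replicates within a set. Light and dark plants stood in different cabinets, so the light treatment and the cabinet cannot be told apart. In whole seedlings, fewer cells of a type and less RNA per cell cannot be told apart either.

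PSRP6 encodes a small plastid-specific protein of the large subunit of the chloroplast ribosome, the machine that translates the transcripts of the plastid genome. It is made in the cytosol from a nuclear gene and imported. In a recombinant inbred line, long blocks of a chromosome descend from one parent, so a gene chosen as a tag stands for its neighbours as well: any difference between lines divided by a tag may belong to any gene in the linked block. A gene whose level follows the allele at its own position is said to vary in cis, whereas a gene on another chromosome can follow the tag through a distant effect or through chance association of chromosomes in a small population.

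The lines were chosen by the levels of PSRP6 itself, which are therefore given as a description. The Tnz-1 parent had 1110.2 TPM in the light and 979 TPM in the dark, and the Ws-2 parent was listed at 0 in each. In the light PSRP6 ran from 106 to 1301 TPM with a median of 968 in Tnz-1-like lines, against 0 to 5.69 TPM with a median of 0 in Ws-2-like lines. In the dark it ran from 125 to 1151 TPM with a median of 846 in Tnz-1-like lines, against 0 to 7.38 TPM with a median of 0 in Ws-2-like lines. In 36 Ws-2-like lines it was listed at 0 in both libraries. The midpoint was 5.01 log2 units. The Ws-2-like line nearest to it, line 54, had a mean of 2.25, and the nearest Tnz-1-like line, line 2, had 6.94, so no line lay close to the boundary.

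**Figure D1:**
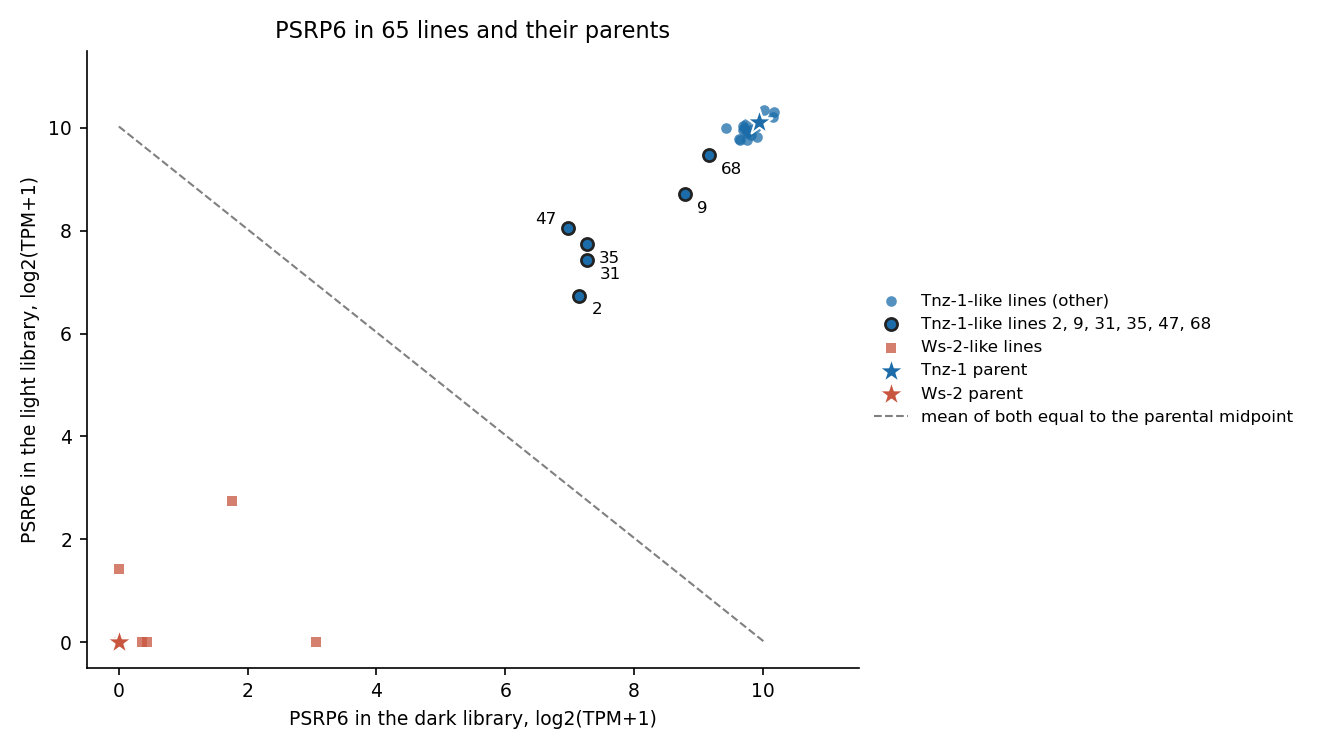
PSRP6 in the light library (y axis) and in the dark library (x axis) of each line, both in log2(TPM+1), for Tnz-1-like lines (circles), Ws-2-like lines (squares) and the parents (stars). Lines 2, 9, 31, 35, 47 and 68, outlined and numbered, lie between the Ws-2-like lines and the other 18 Tnz-1-like lines, and the dashed line marks a mean of both libraries equal to the parental midpoint of 5.01.

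Among the Tnz-1-like lines, 6 were set apart as intermediate lines. PSRP6 was at 9.52% of the Tnz-1 parent in the light in line 2, 15.5% in line 31, 19.1% in line 35 and 23.9% in line 47. Line 9 had 37.7% and line 68 had 63.6%. In the other 18 Tnz-1-like lines it ran from 864 to 1301 TPM in the light. Levels of other genes of the region are given as a description, since PSRP6 or such genes picked these lines. Over 8 genes within 2 Mb of the tag, PSRP6 among them, that had 5 TPM or more in Tnz-1 and under 0.5 TPM in Ws-2, the median level in the light was 14.3%, 12.0%, 17.4% and 17.6% of Tnz-1 in lines 2, 31, 35 and 47. Line 9 had 46.1% and line 68 had 58.7%, whereas the other 18 Tnz-1-like lines had 68% to 107% and the Ws-2-like lines at most 0.389%. Over 14 genes with the opposite parental pattern, lines 2, 31, 35 and 47 had 97.2%, 104%, 80% and 86.9% of the Ws-2 level in the light and line 68 had 37.3%, while line 9 had 0.488% and the other 18 Tnz-1-like lines had at most 1.87%. Lines 2, 31, 35, 47 and 68 thus expressed genes particular to each parent in this block, at different proportions. At the markers within 1 Mb of the tag (genes defined next), lines 2, 31, 35 and 47 had 0 Tnz-1-like calls and line 68 had 5, so the majority of these markers went against their PSRP6 call and would give 19 Tnz-1-like and 46 Ws-2-like lines. Whether these libraries held both alleles was not tested. Lines 2, 9, 31, 35 and 47 were picked because PSRP6 lay at 5% to 50% of the Tnz-1 parent in both libraries. Line 68 was picked by another rule, a median over the 14 genes of at least 20% of the Ws-2 level in both libraries. The counts of called near genes are also given without the 6 lines, a choice made after seeing the data. Since levels at the tag and at near genes picked these lines, such counts are a description.

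The reach of the block was read from 908 expression markers, genes whose parents differed by at least 3 log2 units with 1 sign in both conditions, 44 of them within 2 Mb of the tag. Within 0.25 Mb a median of 92.3% of lines had a marker call equal to that of PSRP6, and between 1 and 2 Mb the median was 83.1%. These shares include the intermediate lines. At the 17 markers within 1 Mb before the tag, lines 2, 31, 35 and 47 had 0 Tnz-1-like calls and line 68 had 3. Every other Tnz-1-like line, line 9 among them, had only Tnz-1-like calls there, and Ws-2-like lines had 0. Disagreement on that side thus lay only in lines 2, 31, 35, 47 and 68. It was 69.8% between 2 and 4 Mb and 58.7% beyond 8 Mb. On chromosomes 1, 2, 3 and 4 the medians were 54.1%, 64.6%, 67.7% and 66.7%.

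**Figure D2:**
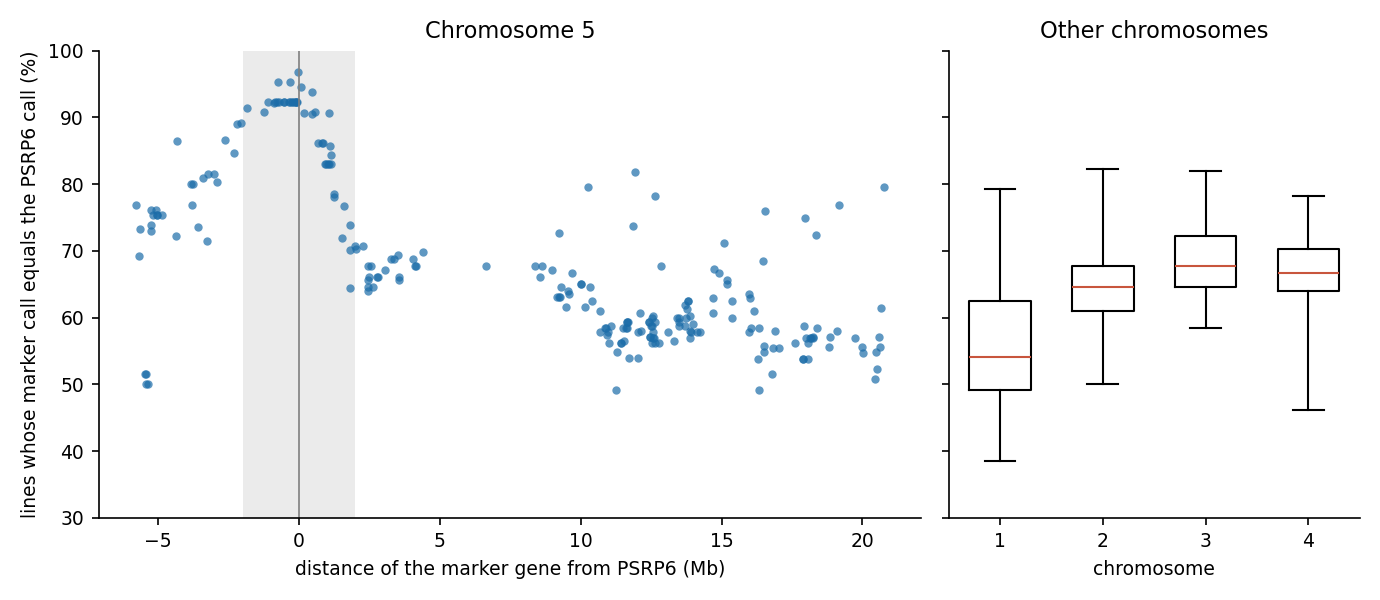
Share of lines whose call at an expression marker equals the PSRP6 call (y axis, percent), for chromosome 5 markers by their distance from PSRP6 in Mb (left, shaded within 2 Mb) and for markers of each other chromosome (right, boxes with medians and whiskers to the extremes). Within 0.25 Mb the shares run from 90.6% to 96.8%, and beyond 8 Mb from 49.2% to 81.8%. All lines, the intermediate lines included, enter these shares.

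The sets also differed away from chromosome 5. Tnz-1-like calls made up 32.7% ± 14.2 of the markers on the other chromosomes in the Tnz-1-like lines (SD, n = 24) and 19.2% ± 12.1 in the Ws-2-like lines (SD, n = 41). On chromosome 1 the means were 27.2% in Tnz-1-like and 27.9% in Ws-2-like lines, and on chromosome 2 they were 39.3% in Tnz-1-like and 19.7% in Ws-2-like lines. On chromosome 3 they were 22.1% in Tnz-1-like and 5.43% in Ws-2-like lines, and on chromosome 4 they were 43.9% in Tnz-1-like and 21.2% in Ws-2-like lines. The mean share of Tnz-1-like calls was thus higher in Tnz-1-like lines on chromosomes 2, 3 and 4. Counts on other chromosomes are therefore also given with each line's share outside chromosome 5 (the genome share) as a term of the fit. The sets also held 8 pairs of near-identical lines (marker calls at least 97% equal), each pair within 1 set.

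Levels were compared with limma over 18110 genes with a mean of 1 TPM or more, on log2(TPM+1), as Tnz-1-like minus Ws-2-like lines. A gene was called when its Benjamini-Hochberg adjusted p over all these genes was under 0.05, and all adjusted p-values below come from limma. Whether a level listed at or near 0 meant little transcript, or reads of that parental allele left unassigned, was not tested. The differences below are of listed levels. Within 2 Mb of the tag, 478 of 816 genes were called in the light (58.6%) and 467 in the dark (57.2%), and without the 6 lines 514 and 506 were called. Over all genes tested, 20.7% were called in the light and 21.6% in the dark. On other chromosomes 18.1% were called in the light and 19.1% in the dark. Called in both conditions with 1 sign were 400 of the 816 near genes (49%), of which 169 were higher (20.7%) and 231 lower (28.3%) in Tnz-1-like lines, against 513 genes on the rest of chromosome 5 (15.1%) and 1536 on other chromosomes (11.1%).

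The share called in both conditions fell with distance from PSRP6. It was 62.5% of 104 genes within 0.25 Mb, 57.1% from 0.25 to 0.5 Mb and 54.6% from 0.5 to 1 Mb. It was 40.3% from 1 to 2 Mb, 33.0% from 2 to 4 Mb, 24.8% from 4 to 8 Mb and 7.12% of 2205 genes beyond. Of 356 near genes called in both conditions whose parents also differed with 1 sign in both, 344 (96.6%) had the sign of the parents. The share was alike away from the tag, at 98.5% of 466 such genes on the rest of chromosome 5 and 94.8% of 1425 on other chromosomes. When TPM columns were rescaled by the median of ratios, near genes called in the light were 162 higher and 302 lower. Without rescaling they were 213 higher (26.1%) and 265 lower (32.5%). Over all genes, 74.9% of called genes were higher in Tnz-1-like lines in the light and 75% in the dark. With rescaling these shares were 51.3% and 52.2%, so the balance of directions over the genome depended on the scaling. Rescaling moved the median difference of all genes by less than 0.1 log2 units.

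**Figure D3:**
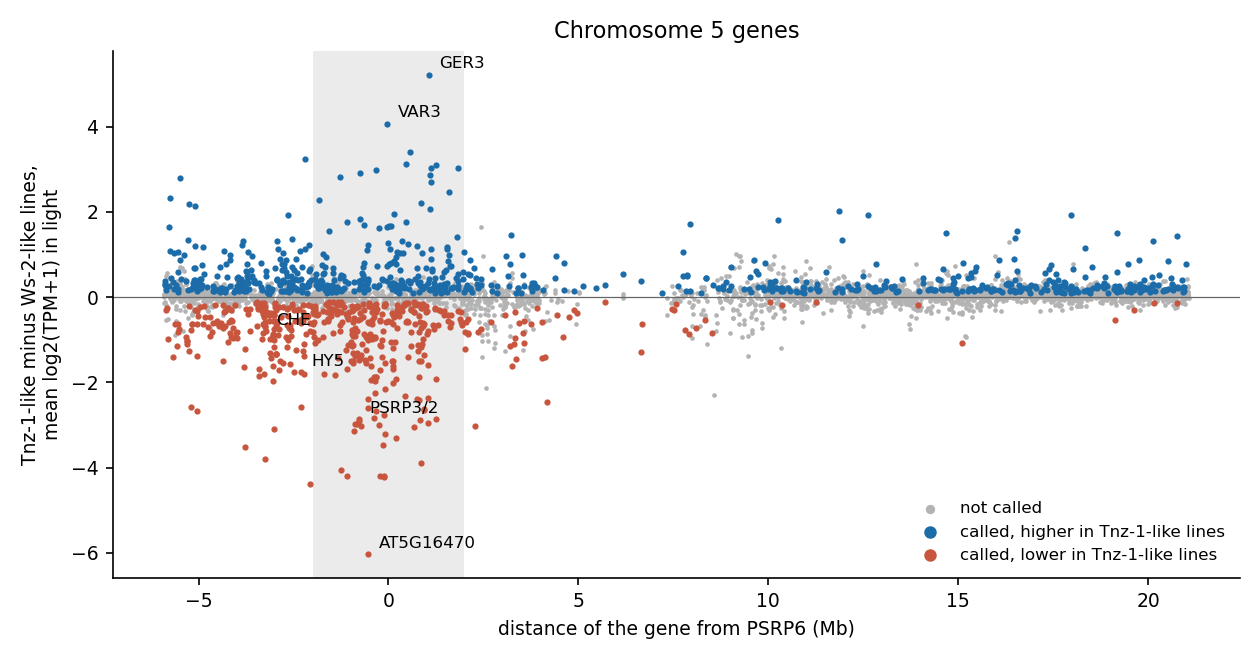
Difference in mean log2(TPM+1) in the light between Tnz-1-like and Ws-2-like lines (y axis) for every tested gene of chromosome 5 by its distance from PSRP6 in Mb (x axis), with called genes coloured and the 2 Mb window shaded. Large differences of both signs gather in the window, from -6.03 for AT5G16470 to 5.22 for GER3.

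Among the near genes that were lower in Tnz-1-like lines, the largest difference was that of AT5G16470, a C2H2 zinc finger gene at chr5:5379359-5380512. In the light it had 0 to 173 TPM with a median of 0 in Tnz-1-like lines, against 150.3 to 248 TPM with a median of 182 in Ws-2-like lines. It was listed at 0 in 18 Tnz-1-like lines in the light, and the sets overlapped only through intermediate lines: without the 6 lines above, the highest Tnz-1-like value was 0.25 TPM. The difference was -6.03 ± 0.46 (SE), adjusted p = 2.03e-17, in the light and -6.22 ± 0.48 (SE), adjusted p = 3.65e-17, in the dark. PEX19-2, one of a pair of genes for the receptor that brings membrane proteins to peroxisomes, had 0 to 44.7 TPM with a median of 0.32 in Tnz-1-like lines, against 31.2 to 73 TPM with a median of 47.2 in Ws-2-like lines in the light. Its difference was -4.22 ± 0.31 (SE), adjusted p = 4.59e-18, in the light and -4.26 in the dark. Its neighbour AT5G17560, a BolA-like gene, had medians of 1.04 TPM in Tnz-1-like lines and 64.7 TPM in Ws-2-like lines in the light, with a difference of -4.21 ± 0.30 (SE), adjusted p = 1.94e-18. In each of these 2 genes, 20 of the 24 Tnz-1-like lines lay below every Ws-2-like line in the light.

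AT5G14910, for a protein with a heavy-metal-associated domain, had medians of 10.8 TPM in Tnz-1-like lines and 390.1 TPM in Ws-2-like lines in the light, with a difference of -4.21 ± 0.30 (SE), adjusted p = 1.4e-18, and no Tnz-1-like line reached the Ws-2-like median. It overlaps AT5G14900, and the use of strand in counting is not given in the sources used here, so its level is uncertain. AT5G17280, an oxidoreductase-like gene that overlaps AT5G17290, had medians of 0.825 TPM in Tnz-1-like lines and 56.9 TPM in Ws-2-like lines in the light (difference -4.19). AT5G20060, an alpha/beta-hydrolase gene, had 0 to 89.2 TPM with a median of 0.71 in Tnz-1-like lines, against 0.4 to 90.9 TPM with a median of 78.8 in Ws-2-like lines in the light, a difference of -3.89 ± 0.42 (SE), adjusted p = 2.65e-11. For this gene each set spanned nearly the whole range, and 1 Tnz-1-like line exceeded the Ws-2-like median. AT5G14410 and AT5G15420, neither with a described product, had Tnz-1-like medians of 0 in both conditions. Their Ws-2-like medians were 34.9 and 13.9 TPM in the light, and 66.3 and 37.4 TPM in the dark. AT5G15420 has a copy of 84.8% identity elsewhere on chromosome 5, and its level is uncertain for that reason.

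Among the near genes that were higher, GER3, a germin-like protein of the cell wall, led at chr5:6975029-6976036. In the light it had 1.46 to 983 TPM with a median of 484 in Tnz-1-like lines, against 1.12 to 1241 TPM with a median of 2.78 in Ws-2-like lines, and the difference was 5.22 ± 0.59 (SE), adjusted p = 1.37e-10. In the dark the medians were 354 TPM in Tnz-1-like lines and 0.78 TPM in Ws-2-like lines, with a difference of 5.70 ± 0.60 (SE), adjusted p = 1.05e-11. The ranges of the sets overlapped through a few lines, and 21 of the 24 Tnz-1-like lines lay above the Ws-2-like median in the light. Ws-2-like lines 1, 11 and 29 had 1241, 1040 and 729 TPM in the light, and the next highest, line 28, had 12.5 TPM. Lines 1 and 11 were a near-identical pair. Tnz-1-like lines 35, 36 and 69 had 2.48, 1.46 and 1.93 TPM in the light, and the next lowest, line 31, had 71.8 TPM. VAR3, a chloroplast zinc finger protein needed for normal leaf development, is encoded shortly before the tag at chr5:5869696-5872782. It had 3.24 to 27.2 TPM with a median of 22.8 in Tnz-1-like lines, against 0 to 0.19 TPM with a median of 0.06 in Ws-2-like lines in the light, a difference of 4.07 ± 0.14 (SE), adjusted p = 1.9e-35. In the dark it differed by 3.74 ± 0.14 (SE), adjusted p = 4.11e-33. VAR3 did not overlap between the sets in either condition.

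AT5G19250, a GPI-anchored glycoprotein, had medians of 159 TPM in Tnz-1-like lines and 9.01 TPM in Ws-2-like lines in the light, with a difference of 3.41 ± 0.23 (SE), adjusted p = 2.49e-19, although it has a copy of 81.3% identity nearby. AT5G19070, of the SNARE-associated Golgi family, had medians of 19.2 TPM in Tnz-1-like lines and 0.69 TPM in Ws-2-like lines in the light, with a difference of 3.12 ± 0.17 (SE), adjusted p = 6.33e-24, and 23 of the 24 Tnz-1-like lines lay above every Ws-2-like line. AT5G21090 and AT5G20700, a leucine-rich repeat gene and a gene annotated as senescence-associated, had differences in the light of 3.10 (adjusted p = 8.84e-06) and 2.87 (adjusted p = 1.07e-08). AT5G20740, of the invertase and pectin methylesterase inhibitor family, differed by 3.03 (adjusted p = 3.93e-08) in the light, and it was listed at 0 in 2 Tnz-1-like and 25 Ws-2-like lines. AAE17, an acyl-activating enzyme at chr5:7731221-7735566, differed by 3.04 ± 0.70 (SE), adjusted p = 0.00126, in the light, and its nearest marker equalled the PSRP6 call in 70.2% of lines.

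Few near genes separated the sets completely. With all 24 Tnz-1-like lines, 3 of the 816 near genes were above every Ws-2-like line in both conditions, namely VAR3, AT5G16980 and CSA1, and 0 were below. Without the 6 lines, 10 were above and 58 below. These lines were left out for their levels at the tag or at near genes. The larger counts are therefore in part built into that choice and are given as a description. On the rest of chromosome 5 and on other chromosomes, 0 genes separated the sets in either selection of lines. Over all 18110 genes tested the counts were thus the same as over the near genes, 3 with all lines, and 10 and 58 without the 6 lines.

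The genes directly beside PSRP6 did not all differ. CSA1, an immune receptor of the TIR-NBS-LRR class and the next gene downstream, had 0.19 to 3.97 TPM with a median of 2.84 in Tnz-1-like lines in the light and was listed at 0 in all 41 Ws-2-like lines. Then came AT5G17900, with medians of 3.53 TPM in Tnz-1-like lines and 1.63 TPM in Ws-2-like lines in the light, with a difference of 0.78 ± 0.08 (SE), adjusted p = 9.85e-12, although a copy of 97.6% identity makes its level uncertain. AT5G17910 did not pass the test, with differences of 0.05 (adjusted p = 0.529) in the light and 0.12 (adjusted p = 0.0817) in the dark. ATMS1, a methionine synthase with a copy of 88.4% identity, had medians of 235 TPM in Tnz-1-like lines and 235 TPM in Ws-2-like lines in the light and did not pass (adjusted p = 0.965 in the light and 0.898 in the dark). AT5G17930, with a MIF4G domain, was higher by 0.48 (adjusted p = 2.15e-08) in the light.

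On the upstream side the nearest gene, CAX7, a calcium exchanger, did not pass in the light, at 0.25 (adjusted p = 0.0761), and was higher in the dark by 0.32 (adjusted p = 0.0299). AT5G17850, of the same exchanger family, was lower, with medians of 3.42 TPM in Tnz-1-like lines and 5.8 TPM in Ws-2-like lines in the light, with a difference of -0.57 ± 0.07 (SE), adjusted p = 2.39e-09. AT5G17840, a DnaJ-type gene, did not pass in the light (adjusted p = 0.969) and was higher in the dark by 0.19 (adjusted p = 0.0262). AT5G17820, a peroxidase gene, was higher by 1.27 (adjusted p = 6.45e-09) in the light and 0.75 (adjusted p = 0.000327) in the dark. WOX12, a homeobox regulator of root founder cells, was higher by 0.74 (adjusted p = 0.000114) and 0.90 (adjusted p = 1.84e-05) in light and dark.

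**Figure D4:**
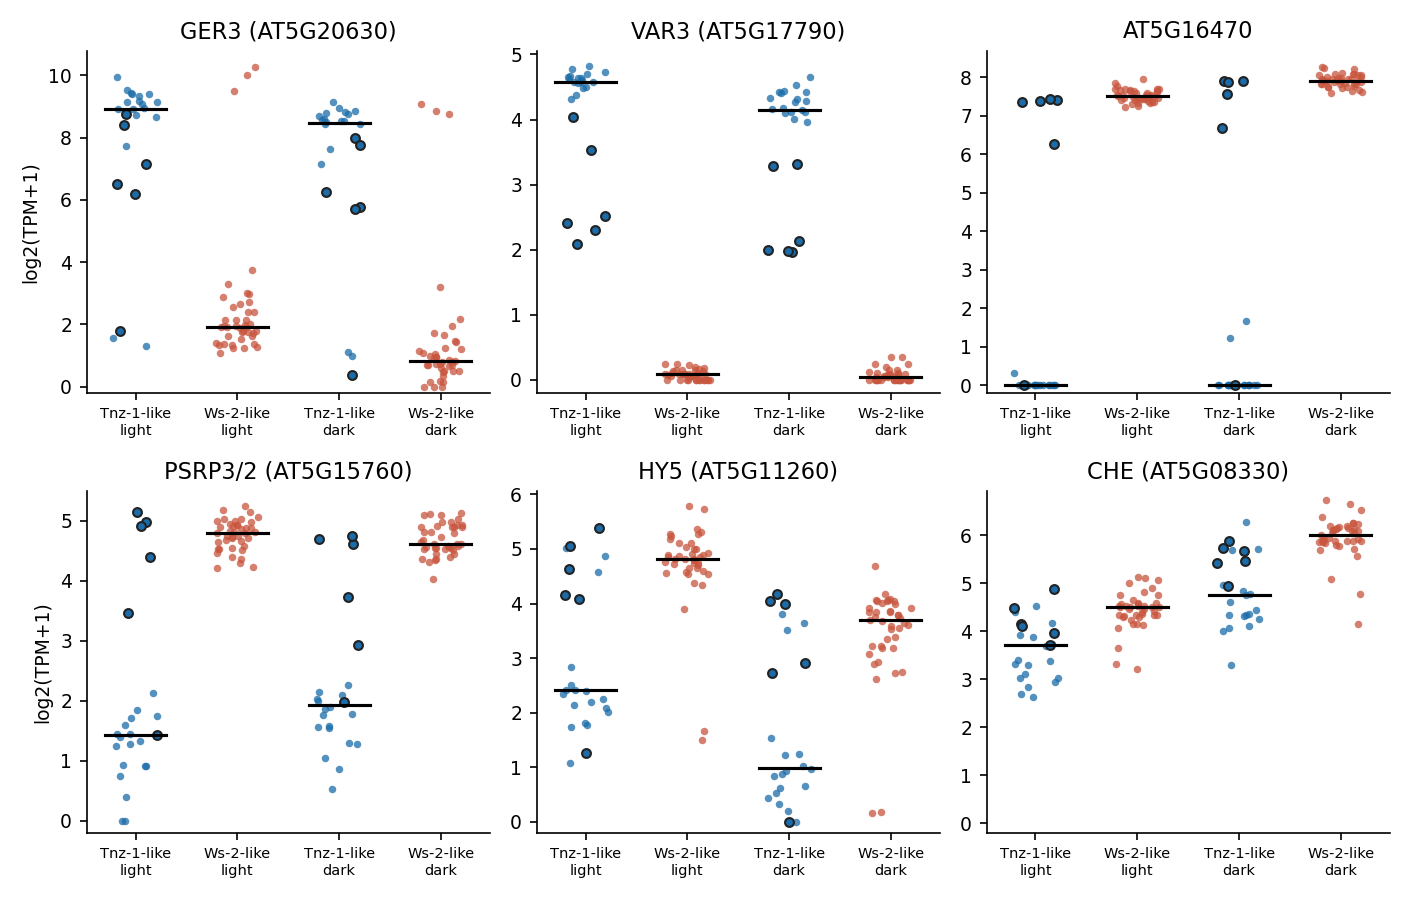
Levels in log2(TPM+1) (y axis) of 6 chromosome 5 genes in each Tnz-1-like and Ws-2-like line, in the light and in the dark; bars mark medians and outlined points are lines 2, 9, 31, 35, 47 and 68. VAR3 separates the sets in both conditions, whereas HY5 and CHE, farther from PSRP6, overlap between them.

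Other proteins of the plastid ribosome were examined as lists. Of all genes tested, 15.5% were higher and 5.2% lower in the light, and 16.2% higher and 5.39% lower in the dark, which is the background for the counts in each list. Of 6 tested plastid-specific ribosomal proteins other than the tag, 0 were higher and 2 were lower in both conditions. PSRP3/2, an acidic protein of the small subunit encoded in the near block at chr5:5142990-5144606, had 0 to 34.6 TPM with a median of 1.7 in Tnz-1-like lines, against 17.6 to 36.8 TPM with a median of 26.9 in Ws-2-like lines in the light, with a difference of -2.87 ± 0.24 (SE), adjusted p = 1.2e-15. In the dark it differed by -2.51 ± 0.19 (SE), adjusted p = 7.13e-18. Apart from intermediate lines, its Tnz-1-like values did not exceed 3.4 TPM in the light. The direction of the tag between the sets was fixed by the way they were made. PSRP3/2 ran the other way, as it did between the parents, with 1.3 TPM in the Tnz-1 parent, against 28.9 TPM in the Ws-2 parent in the light. It overlaps AT5G15770 and is uncertain to that extent. PSRP4, on chromosome 2, was lower, at -1.10 ± 0.38 (SE), adjusted p = 0.0338, in the light, and with the share of Tnz-1-like markers as a term its adjusted p was 0.353. PSRP1, PSRP2, PSRP3/1 and PSRP5 did not pass in either condition.

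Of 33 plastid ribosomal proteins that are shared with bacteria, 2 were higher and 9 lower in the light, and 2 higher and 7 lower in the dark. The median difference over the list was -0.06 in the light and -0.05 in the dark, against 0.06 over all genes in each condition. EMB3137, the S13 protein and a near gene at chr5:4617218-4618981, was higher by 0.16 (adjusted p = 0.0115) in the light and 0.19 (adjusted p = 0.000142) in the dark, and in the light it did not pass after rescaling (adjusted p = 0.221). EMB3136, the L10 protein and the other near member, differed by -0.05 (adjusted p = 0.406) and -0.02 (adjusted p = 0.786) in light and dark. RPL12-A was lower, at -0.36 (adjusted p = 0.00123) and RPL12-C higher by 1.31 (adjusted p = 0.00781) in the light, though the 92% identity of these copies makes both uncertain. The largest were AT3G54210, for the L17 protein, at -3.54 (adjusted p = 0.00147), and PRPL28 at -2.57 (adjusted p = 0.0318), in the light. With its nearest marker as a term AT3G54210 differed by 0.00923 in the light. With the genome share as a term, 2 of the list were higher and 1 lower in the light, and 3 higher and 2 lower in the dark. After rescaling, 1 was higher and 13 lower in the light, and 2 higher and 14 lower in the dark. Of 74 tested chloroplast-encoded genes, 0 were called in the light and 8 were lower in the dark, with differences from -1.27 (ATCG00140) to -0.52 (ATCG00280), and with the genome share as a term 2 of the list were lower, 1 of them (ATCG00140) among these 8. RNA had been selected for poly(A) tails, which most plastid transcripts lack.

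Among regulators of light and time, HY5, a bZIP factor that promotes seedling responses to light, differed most. HY5 lies outside the near window at chr5:3593335-3595073, where the nearest marker equalled the PSRP6 call in 84.6% of lines. In the light it had 1.1 to 40.8 TPM with a median of 4.3 in Tnz-1-like lines, against 1.84 to 53.9 TPM with a median of 27.3 in Ws-2-like lines, and in the dark medians were 0.99 TPM in Tnz-1-like lines and 11.9 TPM in Ws-2-like lines. The difference was -1.76 ± 0.26 (SE), adjusted p = 4.03e-07, in the light and -1.78 ± 0.29 (SE), adjusted p = 2.79e-06, in the dark, and it remained called with the genome share as a term (adjusted p = 0.000122 in the light). The ranges overlapped, and 4 of the 24 Tnz-1-like lines lay above the Ws-2-like median in the light. HY5 had 3.99 TPM in the Tnz-1 parent, against 22.2 TPM in the Ws-2 parent in the light. Of 10 listed light-induced genes, 2 were higher and 1 lower in each condition, and HY5 was the lower one. NIA2, a nitrate reductase, and ELIP1, an early light-induced protein, were higher by 0.73 (adjusted p = 0.0318) and 0.51 (adjusted p = 0.0091) in the light, and NIA2 did not pass after rescaling (adjusted p = 0.0765). ELIP1 did not pass with the genome share as a term (adjusted p = 0.254 in the light and 0.121 in the dark). Of 10 dark-induced genes, 1 was called in the light, DIN2, at 0.66 (adjusted p = 0.0445), which did not pass after rescaling (adjusted p = 0.088), and 0 were called in the dark.

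Of 23 tested clock genes, 0 were higher and 2 lower in the light, and 1 was higher and 1 lower in the dark. CHE (AT5G08330, a TCP factor that represses CCA1) lies at chr5:2680401-2681993 and had medians of 12 TPM in Tnz-1-like lines and 21.7 TPM in Ws-2-like lines in the light and 26.2 TPM in Tnz-1-like lines and 63 TPM in Ws-2-like lines in the dark. It was lower, at -0.80 ± 0.13 (SE), adjusted p = 1.45e-06, in the light and -1.10 ± 0.15 (SE), adjusted p = 1.59e-08, in the dark, with the ranges of the sets overlapping. CCA1, a core morning factor on chromosome 2, was higher in the dark, by 0.44 ± 0.10 (SE), adjusted p = 0.00124, with medians of 1.94 TPM in Tnz-1-like lines and 1.21 TPM in Ws-2-like lines; in the light it differed by 0.08 (adjusted p = 0.506), and the difference between conditions did not pass (adjusted p = 0.211). RVE1, a near MYB gene that links the clock to auxin, was lower in the light, at -0.54 ± 0.13 (SE), adjusted p = 0.00158, and differed by -0.14 (adjusted p = 0.361) in the dark; here too the difference between conditions did not pass (adjusted p = 0.36).

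Of 12 tested flowering-time genes, 2 were lower in each condition. CO, the photoperiod switch of flowering and a near gene, was lower in the light, at -0.52 ± 0.13 (SE), adjusted p = 0.00402, and did not differ beyond its error in the dark (adjusted p = 0.998). Its difference between conditions did not pass (adjusted p = 0.246), nor did its level in the light with the genome share as a term (adjusted p = 0.181). It overlaps AT5G15845. TFL2, a chromatin protein also known as LHP1, was lower, at -0.17 (adjusted p = 0.042) in the light and -0.29 (adjusted p = 3.67e-08) in the dark, and SVP, a repressor of flowering on chromosome 2, differed in the dark by -0.27 (adjusted p = 0.0213). SVP differed by -0.23 in the light (adjusted p = 0.13), its difference between conditions did not pass (adjusted p = 0.864), and with the genome share as a term it did not pass in the dark (adjusted p = 0.325). COL1, next to CO, did not pass, at 0.20 (adjusted p = 0.263) in the light. Of 7 tested flavonoid genes, 2 were higher in each condition: F3H by 0.55 (adjusted p = 0.001) and the near gene UGT78D2 by 0.23 (adjusted p = 0.0109) in the light, and F3H and TT5 in the dark. The near gene TT4, chalcone synthase at the head of that pathway, did not pass, at 0.30 (adjusted p = 0.314) in the light. No flavonoid gene passed with the genome share as a term.

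The near SAUR19 subfamily, small auxin-induced proteins that promote cell expansion, split by member. SAUR20 had a median of 1.99 TPM in Tnz-1-like lines in the light and was listed at 0 in all 41 Ws-2-like lines, and in the dark its medians were 6.9 TPM in Tnz-1-like lines and 0 TPM in Ws-2-like lines. SAUR19 ran the other way, with dark medians of 0 TPM in Tnz-1-like lines and 4.5 TPM in Ws-2-like lines, with a difference of -1.66 ± 0.19 (SE), adjusted p = 3.63e-10. The other 4 members did not pass. All 6 share at least 92.6% identity with another member, so reads may be split between them. Of 16 tested aliphatic glucosinolate genes, 1 was higher and 1 lower in the light, and 2 higher and 0 lower in the dark. The lower one was UGT74C1, a glucosyltransferase (AT2G31790) on chromosome 2, at -0.92 (adjusted p = 0.047), which did not pass with the genome share as a term (adjusted p = 0.433) and differed by 0.0929 with its nearest marker as a term. MAM3 (AT5G23020) and MAM1, near enzymes of side-chain elongation, differed in the dark by 1.10 (adjusted p = 0.00838) and 0.74 (adjusted p = 0.00593), and in the light by 1.40 (adjusted p = 0.000301) and 0.48 (adjusted p = 0.161). MAM3 passed with the genome share as a term in the light (adjusted p = 0.0256) and neither passed in the dark (adjusted p = 0.314 for MAM3 and 0.282 for MAM1). They are copies of 85.1% identity. The median levels in Tnz-1-like lines were 4.36 TPM for MAM3 and 0.955 TPM for MAM1 in the light, against 89 and 96 TPM in the Tnz-1 parent.

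On the rest of chromosome 5, 758 of 3406 genes were called in the light (22.3%) and 785 in the dark (23%), and with the genome share as a term these counts were 235 and 226. AT5G11900, for a translation initiation factor of the SUI1 family, had medians of 0 TPM in Tnz-1-like lines and 54.1 TPM in Ws-2-like lines in the light, with a difference of -4.37 ± 0.41 (SE), adjusted p = 1.35e-13; it overlaps AT5G11910. YLS8, a splicing factor, had medians of 1.46 TPM in Tnz-1-like lines and 187 TPM in Ws-2-like lines, with a difference of -3.81 ± 0.61 (SE), adjusted p = 2.82e-06, and PGIP1, an inhibitor of fungal pectinases, differed by -3.51 (adjusted p = 4.93e-05). Higher were AT5G11580, of the RCC1 family, with medians of 65.4 TPM in Tnz-1-like lines and 2.32 TPM in Ws-2-like lines, with a difference of 3.23 ± 0.32 (SE), adjusted p = 8.33e-13, and RHL2, a subunit of topoisomerase VI, at 2.18 (adjusted p = 0.00105). AT5G02160 and AT5G01350, at 2.80 and 2.32 in the light, no longer passed with the genome share as a term. Each was listed at 0 in the light in 0 Tnz-1-like lines and 11 Ws-2-like lines.

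On other chromosomes 2507 of 13888 genes were called in the light (18.1%) and 2651 in the dark (19.1%), and without the 6 lines 3266 and 3192. With the genome share as a term the counts were 527 and 477, of which 374 and 349 were among the first. With each gene's nearest marker as a term, they were 1601 and 1705. NSP2, a specifier protein that turns glucosinolate breakdown towards nitriles, had 0.55 to 642 TPM with a median of 18.9 in Tnz-1-like lines, against 0.06 to 38.8 TPM with a median of 3.81 in Ws-2-like lines in the light, with a difference of 2.38 ± 0.46 (SE), adjusted p = 8.93e-05, and it passed with the genome share as a term (adjusted p = 0.00766). It has a copy of 85.9% identity. DI21, AT2G24020 and GATA4 were higher by 2.75, 2.61 and 2.29 in the light, and AT4G05070, AT3G62530, AT4G10030 and AT2G27290 had differences from -2.38 to -2.11; none of these 7 passed with the genome share as a term, and the ranges of the sets overlapped for each. AT2G36540, a dehalogenase-like gene with a copy of 87.6% identity, was higher by 3.04 (adjusted p = 0.00468) in the light and did not pass with its nearest marker as a term (adjusted p = 0.107).

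Seed storage genes, whose transcripts accumulate in maturing seeds, were also examined. Of 10 tested, 5 were higher in the light and 7 in the dark, with 0 lower, and the median difference was 1.73 in the light and 1.88 in the dark, against 0.06 over all genes in each. Their summed level ran from 3.48 to 8842 TPM with a median of 1009 in Tnz-1-like lines in the light, against 1.72 to 2523 TPM with a median of 316 in Ws-2-like lines. CRU3, a 12S globulin, had 0.22 to 5067 TPM with a median of 415 in Tnz-1-like lines, against 0.05 to 880.2 TPM with a median of 118 in Ws-2-like lines in the light, with a difference of 2.55 ± 0.72 (SE), adjusted p = 0.00821. OLEO1 and OLEO2, coat proteins of oil bodies, were higher by 2.01 (adjusted p = 0.00533) and 1.81 (adjusted p = 0.00657) in the light, and CRA1 by 2.02 (adjusted p = 0.0131). With the genome share as a term, 4 of the 10 passed in each condition. The ranges of the sets overlapped for every one of the members named. The part of seed RNA in other differences between the sets was not tested.

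The light response was compared as each line's light minus dark difference in log2(TPM+1). Of 18110 genes, 29 differed between the sets (0.16%), with 17 higher (0.0939%) and 12 lower (0.0663%) in Tnz-1-like lines, and 1814 had an unadjusted p under 0.05. Of the 816 near genes, 18 differed (2.21%), against 4 on the rest of chromosome 5 (0.117%) and 7 on other chromosomes (0.0504%). In 9 of the 29 the median was 0 in one set under both conditions. These were SAUR19, SAUR20, CSA1, AT5G16980, AT5G14410, PFA-DSP5, AT5G15420, PROPEP5 and AT1G57630. VAR3 was also among the near genes called, with Ws-2-like medians of 0.06 TPM in the light and 0.03 TPM in the dark. Such levels leave almost no room for a light change in that set, so its call is not read as a difference in response. Without the 6 lines 95 genes differed, 40 of them near.

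Among near genes with a median above 0 in both sets, AT5G19850, an alpha/beta-hydrolase gene, rose less in Tnz-1-like lines on the log2(TPM+1) scale. Its change was 0.79 ± 0.49 in Tnz-1-like lines and 1.44 ± 0.26 in Ws-2-like lines (SD, n = 24 and 41), a difference of -0.65 ± 0.09 (SE), adjusted p = 6.79e-06. It rose in all 24 and all 41 lines, from dark medians of 1.08 TPM in Tnz-1-like and 8.2 TPM in Ws-2-like lines, and the pseudocount compresses changes at the lower of these levels: with a pseudocount of 0.1 it did not pass (adjusted p = 0.446). AT5G19940, a plastid fibrillin gene, changed by 0.17 ± 0.25 in Tnz-1-like lines and 0.42 ± 0.18 in Ws-2-like lines, a difference of -0.25 ± 0.05 (SE), adjusted p = 0.0139, and no library had less than 100 TPM. With the genome share as a term it did not pass (adjusted p = 0.321).

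Further near genes were singled out after their values were seen. ENODL17, an early nodulin-like protein, fell in the light in every line, with changes of -1.33 ± 0.33 in Tnz-1-like lines and -1.84 ± 0.32 in Ws-2-like lines, with a difference of 0.50 ± 0.08 (SE), adjusted p = 0.000146. AT5G12950 changed by 0.39 ± 0.24 in Tnz-1-like lines and -0.02 ± 0.28 in Ws-2-like lines, with a difference of 0.41 ± 0.07 (SE), adjusted p = 0.000265, so that it rose in 23 of 24 Tnz-1-like lines and in 18 of 41 Ws-2-like lines. P5CR, the last enzyme of proline synthesis, changed by 0.17 ± 0.41 in Tnz-1-like lines and -0.21 ± 0.24 in Ws-2-like lines, and DND1, a cyclic nucleotide-gated channel, by -0.46 ± 0.36 in Tnz-1-like lines and -0.76 ± 0.22 in Ws-2-like lines. CARAB-AK-LYS, an aspartate kinase, rose in every line, by 0.87 ± 0.37 in Tnz-1-like lines and 0.52 ± 0.23 in Ws-2-like lines. AT5G17780, a hydrolase gene at low level, rose in all 24 Tnz-1-like and in 35 of 41 Ws-2-like lines, with changes of 1.43 ± 0.58 in Tnz-1-like lines and 0.46 ± 0.41 in Ws-2-like lines, with a difference of 0.97 ± 0.12 (SE), adjusted p = 5.68e-07. AT5G17780, ENODL17 and CARAB-AK-LYS were also called when a line's libraries were not treated as a pair (adjusted p = 0.000722, 0.00358 and 0.0244). Of these 6, AT5G17780, ENODL17, AT5G12950 and CARAB-AK-LYS also passed with the genome share as a term.

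**Figure D5:**
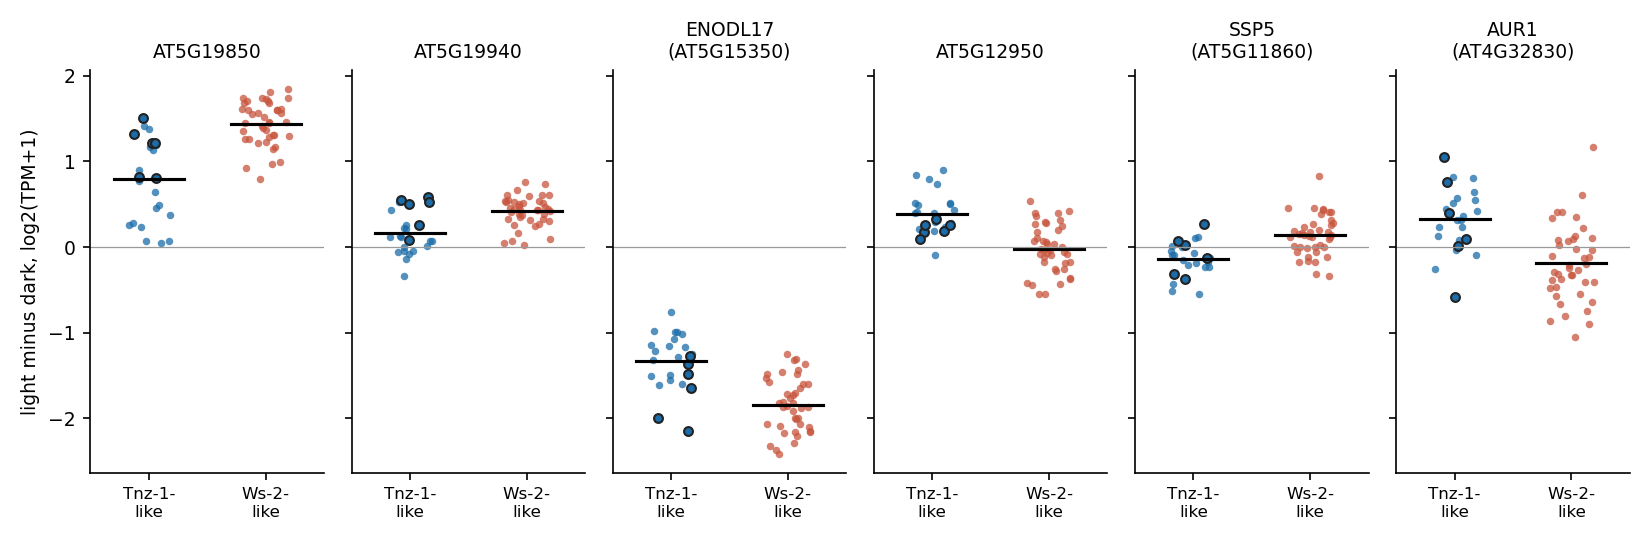
Light minus dark difference in log2(TPM+1) (y axis) in each Tnz-1-like and Ws-2-like line for 6 genes whose light change differed between the sets; bars are means and outlined points are lines 2, 9, 31, 35, 47 and 68. All changes of ENODL17 are below 0, and the sets overlap in each gene.

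PFA-DSP5, AT5G14410 and AT5G15420, the near genes with the largest positive differences in light change at 5 TPM or more, fell in the light in Ws-2-like lines by means of 1.04, 0.88 and 1.46 log2 units. Their Tnz-1-like medians were 0 in both conditions, which leaves almost no room for a light change in that set, so their differences in change restate the difference in level and are not read as a difference in response. Outside the near window, SSP5, a phosphatase gene on chromosome 5 at chr5:3821733-3824298, changed by -0.14 ± 0.20 in Tnz-1-like lines and 0.14 ± 0.23 in Ws-2-like lines, a difference of -0.27 ± 0.06 (SE), adjusted p = 0.0139. SSP5 lies 2 to 4 Mb from PSRP6, where 33.0% of genes were called in both conditions. Markers at that distance equalled the PSRP6 call in a median of 69.8% of lines. EGY2, a plastid membrane protease on the same arm, differed by -0.31 (adjusted p = 0.0196) in its change. On other chromosomes, AUR1, a mitotic Aurora kinase, changed by 0.33 ± 0.37 in Tnz-1-like lines and -0.19 ± 0.45 in Ws-2-like lines, a difference of 0.52 ± 0.11 (SE), adjusted p = 0.0115; PP2-A12, of the phloem protein 2 family, and AT3G18170, a glycosyltransferase, had differences of 0.65 (adjusted p = 0.0457) and 0.54 (adjusted p = 0.00259). SDR1, a short-chain dehydrogenase, and LCD1, a reticulata-like gene of leaf mesophyll, had differences of -0.31 (adjusted p = 0.0288) and -0.31 (adjusted p = 0.0152). AUR1, AT3G18170 and SDR1 have copies of 85.1%, 85.2% and 88.3% identity. Of these 7 genes, SDR1 and SSP5 passed with the genome share as a term. Without near-identical lines, 0 genes on other chromosomes were called lower in light change, so SDR1 and LCD1 did not pass. When a line's libraries were not treated as a pair, none of these 7 genes was called.

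The size of the response over all light-responsive genes was summarised as each line's slope of its log2 changes on the mean change of the other lines, over 935 genes called for light with a change of 1 log2 unit or more that lay outside the near window. The slope was 0.948 ± 0.110 in Tnz-1-like lines (SD, n = 24) and 1.03 ± 0.120 in Ws-2-like lines (SD, n = 41). The difference was -0.0793, with p = 0.0108 in a two-sided permutation test of 100000 resamples. Centred within ranges of line numbers, it was -0.0600 (permutation p = 0.00494). With the genome share as a term it was -0.0209 (permutation p = 0.483).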

How the data were processed

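TPM values, deposited by the authors as 1 table of 28775 genes in 134 libraries, were used as given, and 0 columns were left unused. The submitters' processing notes name cutadapt 3.4, Salmon 1.6.0, GATK and TAIR10, without roles. The aligner's role, the use of strand and read depth are not given in the sources used here, so no counting intervals were computed. Coordinates and symbols come from RefSeq TAIR10.1, which matched 28009 gene IDs (97.3%). Genes with a mean of 1 TPM or more were fitted as log2(TPM+1) with limma 3.58.1 (R 4.3.3), with eBayes trended on the mean level and p-values adjusted by Benjamini-Hochberg over all 18110 genes. This scale understates changes of low genes. The fit with each gene's nearest marker as a term used unmoderated linear models, with p-values adjusted over genes of chromosomes 1, 2, 3 and 4 only. Light change was fitted on the difference between a line's libraries, since both come from the same line; the correlation of their deviations from the group means ran from 0.491 to 0.886 over lines, with a median of 0.771. Near genes lie within 2 Mb of the tag. Copies are genes with at least 80% identity over 50% of the length (BLAST 2.17.0). Named genes are the tag, its 5 tested neighbours on each side, the largest called differences by region and in light change at 5 TPM or more, and list members that were called or near. The members and lists were chosen with earlier results of these data known. Alternatives changed the pseudocount, filter, scaling, lines and model terms. The scripts were tested on simulated data (Python 3.11.15).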

Additional observations from a re-analysis of the deposited data

Results flagged for a closer look

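The results below differed between Tnz-1-like and Ws-2-like lines in their light minus dark change, by the test of that difference. In log2 units, as Tnz-1-like minus Ws-2-like lines, limma gave light changes that differed by 0.70 for AT5G14410, 1.07 for AT5G15420 and 0.80 for PFA-DSP5, all near the tag. The Tnz-1-like medians of these 3 genes were 0 in both conditions, so these values restate their difference in level and are not read as a difference in response. On other chromosomes the difference was 0.65 for PP2-A12, 0.54 for AT3G18170 and 0.52 for AUR1. It was negative for the near genes AT5G19850, at -0.65, and AT5G19940, at -0.25. AT5G19850 had a low median level in the dark in Tnz-1-like lines and did not pass with a pseudocount of 0.1. The difference was -0.31 for EGY2 and -0.27 for SSP5 on the rest of chromosome 5, and -0.31 for each of SDR1 and LCD1 on other chromosomes. SDR1 and LCD1 were not called without near-identical lines. The light response slope differed by -0.0793. Explanations for these differences were not tested.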

How the results depend on the processing

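Genes called near the tag in the light and in the dark stayed within 1.5 times of 478 and 467 under every alternative run. With the genome share as a term, 226 genes on the rest of chromosome 5 and 477 on other chromosomes were called in the dark, and 235 and 527 in the light, against 785 and 2651, and 758 and 2507. Under that term 6 genes away from the tag differed in light change, against 11, and the slope difference was -0.0209. With each gene's nearest marker as a term, 1705 genes on other chromosomes were called in the dark and 1601 in the light. The sign of the difference changed under that term for AT3G54210 in the light (0.00923), AT4G10030 in the dark (0.0789) and light (0.0629), AT2G31790 in the light (0.0929) and AT4G27150 in the dark (-0.36). For AT3G54210, AT4G10030 and AT2G31790 the values under that term are small, so the difference was lost rather than turned the other way. With median-of-ratios scaling 1650 genes on other chromosomes were called in the light. Genes away from the tag that differed in light change numbered 23 with that scaling, 7 with a pseudocount of 0.1 and 5 without near-identical lines. With ranges of line numbers as a term, 30 near genes and 32 elsewhere differed in light change. The cause of these shifts was not tested.

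Without the pairing of a line's libraries (no replicate block), 4 near genes and 0 elsewhere differed in light change, against 18 and 11 with the block.

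Chosen after seeing the data were the fits without the 6 intermediate lines, with 40 near genes and 55 elsewhere differing in light change, and with lines set by the majority of near markers (19 against 46 lines), with 34 and 28. The genome share for the slope was also chosen then. A fit of lines whose markers within 2 Mb all gave the call could not be run, since 0 Tnz-1-like and 26 Ws-2-like lines met it. The fit with 5 other tags as terms dropped 2 Tnz-1-like lines with no LUX call, leaving 22 against 41. Depth is unknown from TPM, so low levels have unstated precision, and each line gave 1 library per condition.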
